A study of Homo sapiens with 6 samples.

Results

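Cholesterol and fatty acid synthesis was followed in Cal27, a cell line long established from a squamous carcinoma of the human tongue, through 33 genes chosen by name. They comprised 26 genes of the sterol arm (enzymes, regulators, and genes of cholesterol transport and oxysterols) and 7 of the fatty acid arm. A value was read only from probe sets, groups of short array probes for a transcript, whose annotation lists exactly 1 gene symbol. Such a probe set was found for 30 of the 33, 24 in the sterol arm and 6 in the fatty acid arm, of 19775 genes on the array with such a probe set. FDFT1, CYP51A1 and FADS1 had none and were not analysed here. Each gene was represented by its probe set with the highest mean signal over all arrays, referred to as the brightest probe set, and the other probe sets served as a check. All 30 passed the filter on low signals (at least 3 arrays above 18.6, the median of all values). CH25H passed only through its 3 knockdown arrays, so it had to differ between the groups.

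To explore genes downstream of the inflammatory cytokine interleukin-1β (IL-1β), the study transduced Cal27 cells with lentivirus whose short hairpin RNA either targeted IL-1β (LV-shIL-1β) or was scrambled (LV-shNC). Both groups shared the virus, polybrene at 6 µg/mL and medium with fetal bovine serum, and stable cells were obtained in puromycin at 2 µg/mL over 2 weeks. Each group held 3 Affymetrix Human Genome U133 Plus 2.0 arrays, prepared from 6 µg of total RNA and processed with MAS5. Each group rests on 1 hairpin sequence, and it is not stated in the sources used here whether the cells were a pool or a clone, or whether separate cultures lie behind the 3 arrays. The spread that p-values measure is therefore that between arrays, and it may be technical. The stems of the hairpins are shown because they define the groups, in capitals as the 19-base sense arm.
LV-shIL-1β: GGAGAGTGTAGATCCCAAA
LV-shNC: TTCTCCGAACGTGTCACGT

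Animal cells build cholesterol from acetyl-CoA through mevalonate, squalene and lanosterol, and fatty acids through malonyl-CoA. Genes of both routes are switched on by the SREBP transcription factors (encoded by SREBF1 and SREBF2), which the escort protein SCAP carries from the endoplasmic reticulum to the Golgi for cleavage when sterols are low. INSIG proteins hold SCAP back when sterols are plentiful, oxysterols such as the product of CH25H strengthen that retention, and the LXR receptors respond to oxysterols by raising genes of cholesterol export such as ABCA1.

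IL1B, the target of the hairpin, checked the labels. Its brighter probe set read 2677, 2611 and 2494 in LV-shNC arrays 1 to 3 and 1569, 1569 and 1596 in LV-shIL-1β arrays 1 to 3. Every knockdown array lay below every control array, and the signal fell by 39.1% (log2 fold change -0.72 ± 0.04 SE, n = 3, limma Benjamini-Hochberg adjusted p = 2.45e-05). Percent changes throughout are those of the log2 fold change, a ratio of geometric means, and can differ slightly from the ratio of the arithmetic means printed. Correlations of log2 signals between arrays were 0.996 or 0.997 within groups and 0.995 to 0.996 between groups. As a sign of RNA integrity, 3′ over 5′ signal of ACTB was 0.41 ± 0.13 on the log2 scale in control arrays and 0.39 ± 0.05 in knockdown arrays (SD, n = 3, two-sided exact permutation p = 0.9). For GAPDH it was -0.02 ± 0.03 and 0.04 ± 0.01 (exact permutation p = 0.1, the smallest 3 against 3 arrays allow). Of the keratinocyte markers, 5 had a value, and their summed signal was 14580 to 15330 in LV-shNC and 12330 to 13100 in LV-shIL-1β, with KRT5 and KRT14 lower and CDH1 and EPCAM not called. The summed signals of the 7 fibroblast markers were 176 to 195 and 139 to 154 (2 lower, COL1A2 and LUM), of 4 leukocyte markers 68.3 to 74.1 and 91.7 to 95.3 (1 higher, CD14), and of 4 endothelial markers 62.0 to 65.4 and 60.6 to 62.1 (PECAM1 alone passed the filter, limma adjusted p = 0.883). None of these markers was listed at 0, and the defining leukocyte marker PTPRC had mean signals of 2.68 and 2.64. COL1A2 and LUM had low mean signals, 23.2 and 27.5 in LV-shNC and 16.1 and 12.4 in LV-shIL-1β. The knockdown means of both lay below the filter on low signals, so the filter may have favoured their lower calls. The part of the marker lists in the results that follow was not tested.

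After IL-1β knockdown, sterol and fatty acid genes fell and rose at different steps. Of the 30 genes, 8 fell (HMGCS1, ACAT2, LSS, MSMO1, INSIG1, STARD4, FASN and SCD), 3 rose (ABCA1, CH25H and TMEM97) and 19 did not pass limma's adjusted p of 0.05. The filter kept CH25H only through its knockdown arrays, so its place in this count was fixed beforehand. With no filter, 8 fell and 2 rose, since TMEM97 did not pass there. Among all 12311 genes represented in the same way, 8.53% were called in either direction, 4.03% higher and 4.5% lower. By the methods' t-test with adjusted p-values 0 fell and 1 rose (11 and 3 at an unadjusted p under 0.05, against 12 and 3 by limma), and in limma without a mean-dependent trend 5 fell. The share of all genes at an unadjusted p under 0.05 was not taken, so the unadjusted counts have no background. Without array LV-shIL-1β 2 the number that fell was 3 (HMGCS1, LSS and STARD4), since the calls of ACAT2, MSMO1, INSIG1, FASN and SCD were lost. Without CH25H, 34.5% of the other 29 genes were called, 8 lower and 2 higher. The fold changes of the 19 genes not called lay between -0.17 and 0.05 on the log2 scale, and the median over all 30 was -0.08 against 0.00 over all genes. Arrays of the 2 groups did not overlap for 14 genes in the lower direction and 3 in the higher (2 without CH25H), while 13 overlapped. Over all genes, 15.7% did not overlap in the lower direction and 15.9% in the higher. In these bulk samples, fewer cells of a kind and less RNA per cell cannot be told apart.

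**Figure D1:**
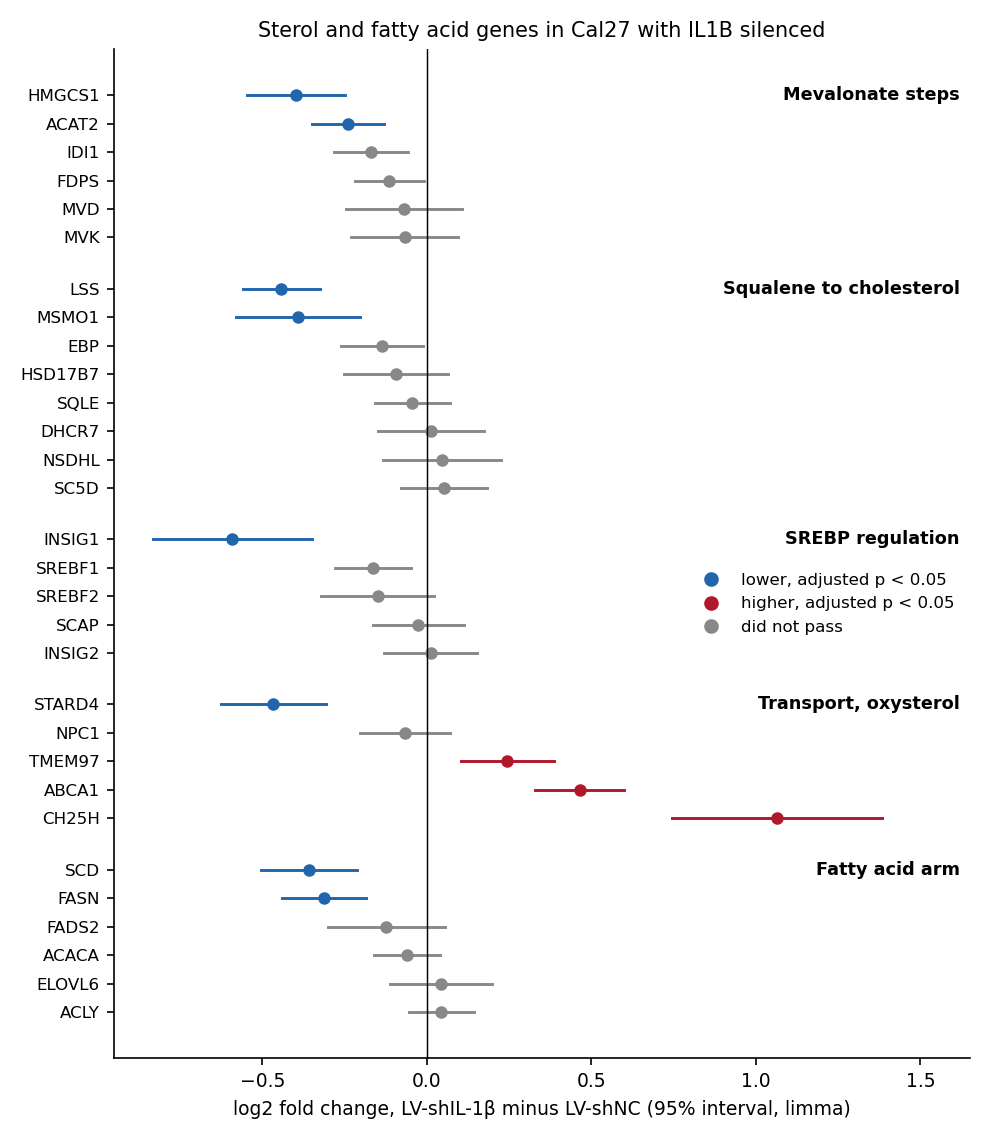
Log2 fold change (LV-shIL-1β minus LV-shNC) of the 30 measured genes by role, with 95% confidence intervals from limma over 3 arrays a group. The called genes reach from -0.59 (INSIG1) to 1.06 (CH25H), and the genes not called lie between -0.17 and 0.05.

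The sterol and fatty acid arms were then compared. In the sterol arm 6 of 24 genes fell and 3 rose, and in the fatty acid arm 2 of 6 fell and 0 rose (limma, also 0 at an unadjusted p under 0.05). Over all genes 4.5% were called lower and 4.03% higher, and the share at an unadjusted p was not taken. The median log2 fold change was -0.08 in the sterol arm and -0.09 in the fatty acid arm. Relative to the mean of the control arrays, the median sterol gene stood at -0.12, -0.06 and -0.08 in LV-shIL-1β arrays 1 to 3 and between 0.00 and 0.01 in the control arrays. The median fatty acid gene stood at -0.10, -0.11 and -0.06 in the knockdown arrays and between -0.04 and 0.02 in the control arrays. Within the sterol arm, 4 of 14 measured enzymes fell, with a median of -0.11, and transport and oxysterol genes held all 3 that rose. Of these 3, CH25H was kept by the filter only through its knockdown arrays, and TMEM97 did not pass with no filter. Where the genes that rose lie is therefore a description.

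**Figure D2:**
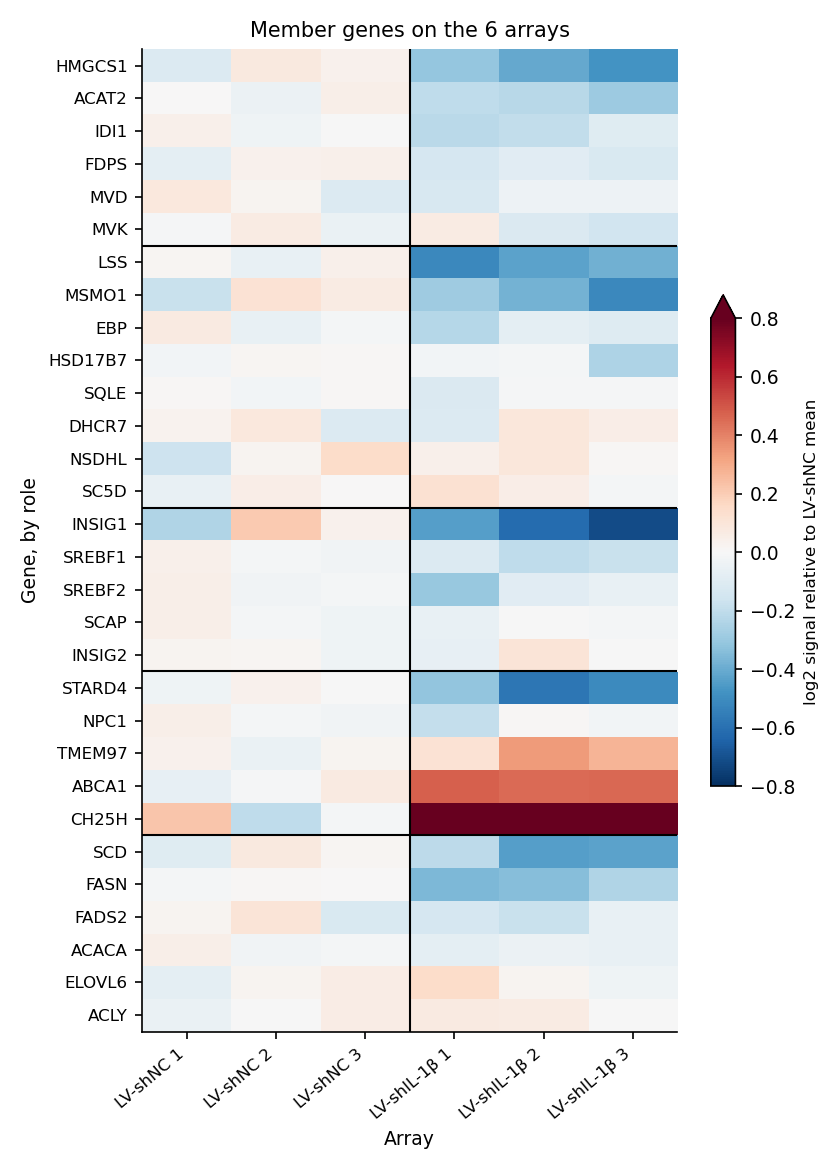
Log2 signal of each of the 30 genes in each array, relative to the mean of the 3 LV-shNC arrays, in colour. The genes that fell are below 0 in all 3 LV-shIL-1β arrays and the genes that rose above 0 in all 3, while CH25H reaches furthest.

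In the first section of the pathway, from acetyl-CoA to farnesyl diphosphate, all 6 measured genes had fold changes below 0 and 2 passed the test. Of all 12311 genes, 6016 had fold changes below 0 and 4.5% were called lower. HMGCS1, the cytosolic synthase that condenses acetoacetyl-CoA with acetyl-CoA to HMG-CoA, read 322, 365 and 355 in LV-shNC and 279, 261 and 249 in LV-shIL-1β. The groups were well apart, with the highest knockdown array below the lowest control array. The means were 347 ± 22.8 and 263 ± 15.2 (SD, n = 3), and HMGCS1 fell by 24.1% (log2 -0.40 ± 0.07 SE, 95% confidence interval -0.55 to -0.25, limma adjusted p = 0.00744). Its other probe set read 164, 158 and 148 against 96.2, 107 and 103, a log2 fold change of -0.62 ± 0.07 (limma adjusted p = 0.00109). ACAT2, the thiolase that makes acetoacetyl-CoA in the cytosol, read 526, 508 and 543 in LV-shNC and 456, 450 and 429 in LV-shIL-1β. All knockdown arrays of ACAT2 were again lower than all control arrays, and the log2 fold change was -0.24 ± 0.05 (limma adjusted p = 0.0197). This call was lost when LV-shNC 3, LV-shIL-1β 2 or LV-shIL-1β 3 was left out.

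The other 4 genes of this section gave smaller differences. IDI1, the isomerase of isopentenyl diphosphate, read 531, 505 and 516 in LV-shNC and 445, 452 and 484 in LV-shIL-1β, without overlap but not past the threshold (log2 fold change -0.17 ± 0.05, limma adjusted p = 0.0766). FDPS, which makes farnesyl diphosphate, also did not overlap, with 688, 744 and 746 against 661, 682 and 668 (-0.11 ± 0.05, limma adjusted p = 0.183). MVK and MVD, the kinase and the decarboxylase of the mevalonate steps, both overlapped between groups with a log2 fold change of -0.07 each (SE 0.07 and 0.08).

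From squalene to cholesterol, 8 of 10 listed enzymes were measured, and LSS and MSMO1 fell. LSS, the cyclase that turns oxidosqualene into lanosterol, read 550, 522 and 558 in LV-shNC and 380, 403 and 416 in LV-shIL-1β. The group means were 543 ± 18.7 and 400 ± 17.8 (SD, n = 3), and no array of either group came near the other. LSS had the lowest limma adjusted p among the 30 brightest probe sets, 0.00159, with a log2 fold change of -0.44 ± 0.05 (95% confidence interval -0.56 to -0.33). Its 2 other kept probe sets gave -0.08 ± 0.09 and -0.26 ± 0.10 and did not pass the test (limma adjusted p = 0.644 and 0.169), so the call rests on the brightest. MSMO1, the methylsterol monooxygenase that starts removal of the C-4 methyl groups of lanosterol's products, read 472, 579 and 560 in LV-shNC and 440, 412 and 374 in LV-shIL-1β. The control arrays of MSMO1 spread widely and array 1 of each group lay closest to the other group. Its log2 fold change was -0.39 ± 0.08 (limma adjusted p = 0.0241), and the call was lost when LV-shNC 2, LV-shNC 3, LV-shIL-1β 2 or LV-shIL-1β 3 was left out (adjusted p up to 0.0983).

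The remaining enzymes of the sterol route did not pass the test. EBP, the sterol isomerase, read 702, 642 and 659 in LV-shNC and 569, 631 and 621 in LV-shIL-1β, just short of overlap (log2 fold change -0.14 ± 0.06, limma adjusted p = 0.179). SQLE, the squalene epoxidase and a rate-limiting enzyme of the route, read 351, 344 and 351 against 322, 347 and 346, so that the groups overlapped (-0.04 ± 0.05, 95% confidence interval -0.16 to 0.07). DHCR7, the reductase of the last step to cholesterol, had a log2 fold change of 0.01 ± 0.07. HSD17B7, NSDHL and SC5D lay at -0.09, 0.05 and 0.05, each with groups that overlapped.

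Among the SREBP regulators only INSIG1 passed the test. INSIG1, whose protein retains SCAP in the endoplasmic reticulum, read 492, 673 and 596 in LV-shNC and 429, 379 and 354 in LV-shIL-1β. The lowest control array was still above the highest knockdown array. The means of INSIG1 were 586 ± 90.9 in control arrays and 387 ± 38.4 in knockdown arrays (SD, n = 3), and it fell by 33.6%, the lowest fold change of the 30 genes (log2 -0.59 ± 0.11, 95% confidence interval -0.83 to -0.35, limma adjusted p = 0.0117). Without LV-shIL-1β 2 the adjusted p on this probe set was 0.0703. Its 2 other probe sets spread less between arrays and also fell. They read 409, 433 and 417 against 279, 283 and 290 (-0.56 ± 0.05, limma adjusted p = 0.000312), and 249, 238 and 232 against 165, 156 and 152 (-0.60 ± 0.06, limma adjusted p = 0.000576).

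INSIG2, the paralogue with the same retention role, read 173, 172 and 166 in LV-shNC and 163, 184 and 170 in LV-shIL-1β. These arrays overlapped fully, and the log2 fold change was 0.01 ± 0.06 with a 95% confidence interval of -0.13 to 0.15. INSIG1 relative to INSIG2 changed by -0.60 on the log2 scale between groups. Taken array by array, and relative to the mean of the control arrays, this difference was -0.27, 0.20 and 0.07 in LV-shNC and -0.37, -0.72 and -0.71 in LV-shIL-1β, which do not overlap (two-sided exact permutation p = 0.1, the smallest possible with 3 against 3, adjusted p = 0.2 over the 2 pairs compared). The other pair was SREBF1 and SREBF2. SREBF1 read 364, 350 and 348 in LV-shNC and 329, 308 and 312 in LV-shIL-1β (log2 fold change -0.16 ± 0.05, limma adjusted p = 0.0913), and SREBF2 read 109, 104 and 104 against 85.6, 99.2 and 102 (-0.15 ± 0.08, limma adjusted p = 0.289). Neither overlapped between groups and neither passed the test, and their ratio changed by -0.01 (exact permutation p = 1, 95% intervals of the single genes -0.28 to -0.05 and -0.32 to 0.02). SCAP was at -0.03 ± 0.06 with overlapping arrays.

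**Figure D3:**
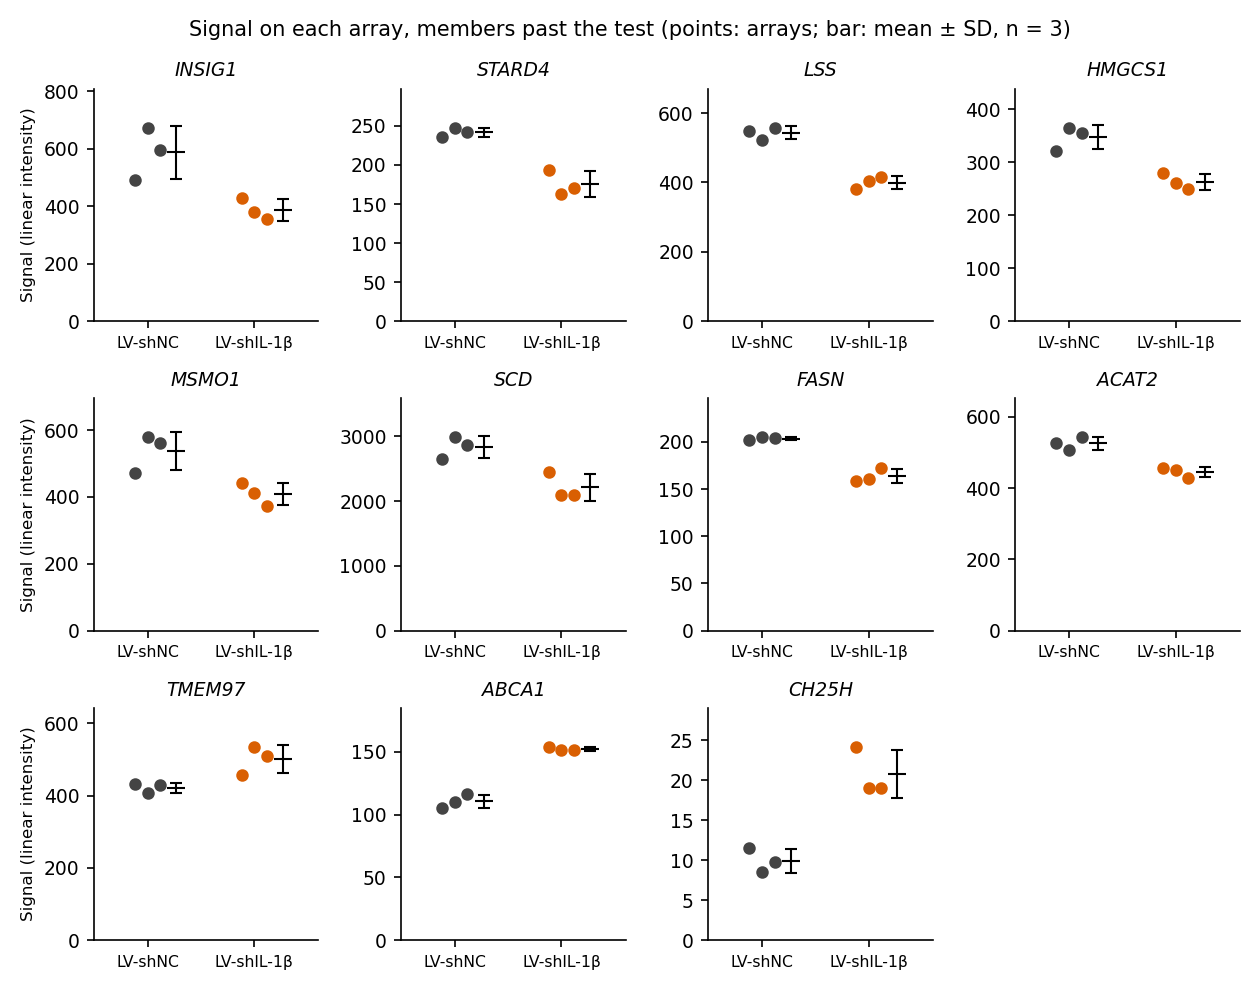
Signal of the 11 called genes in each array (linear scale, 1 panel a gene, own axis), with bars at the group means and error bars of 1 SD over 3 arrays. In each panel the 3 LV-shIL-1β arrays lie wholly below or wholly above the 3 LV-shNC arrays.

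Transport and oxysterol genes moved in both directions. STARD4, a soluble carrier that moves cholesterol between membranes, read 236, 248 and 242 in LV-shNC and 194, 162 and 170 in LV-shIL-1β. Control arrays of STARD4 lay close together and all knockdown arrays lay below them, and STARD4 fell by 27.6% (log2 -0.47 ± 0.07, limma adjusted p = 0.00509). ABCA1, the pump that exports cholesterol and phospholipid to apolipoprotein A-I and a classical LXR target, read 106, 110 and 116 in LV-shNC and 154, 151 and 152 in LV-shIL-1β. Its knockdown arrays were almost equal to each other and 37.9% above the controls (log2 0.46 ± 0.06, limma adjusted p = 0.00244). The other kept probe set of ABCA1 read 85.1, 94.2 and 102 against 130, 112 and 109 and did not pass the test (0.32 ± 0.09, limma adjusted p = 0.0644).

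CH25H, the hydroxylase that turns cholesterol into an oxysterol, had the highest fold change of the genes studied, from low signals. It read 11.5, 8.57 and 9.72 in LV-shNC, all below the filter of 18.6, and 24.2, 19.0 and 19.0 in LV-shIL-1β, just above it. The log2 fold change was 1.06 ± 0.14, and 0.50 when 16 was added to all signals before taking log2, so its size depends on how low signals are treated. Since the filter kept CH25H only because its knockdown arrays are high, its p is given from the test of all probe sets with no filter (limma adjusted p = 0.00221). TMEM97, a sterol-regulated membrane protein that binds NPC1 and lowers its level, read 431, 406 and 429 in LV-shNC and 458, 535 and 509 in LV-shIL-1β. Its groups did not overlap, with a log2 fold change of 0.24 ± 0.06 that passed narrowly (limma adjusted p = 0.0471). The call of TMEM97 was lost when any array other than LV-shIL-1β 1 was left out (adjusted p up to 0.184), and its other 3 probe sets had fold changes of 0.14 to 0.26 that did not pass. The call was also lost with no filter, with the replicate block, without the trend and by the methods' t-test. NPC1, which moves cholesterol out of lysosomes, overlapped between groups (-0.07 ± 0.06, limma adjusted p = 0.568).

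In the fatty acid arm, FASN and SCD fell. FASN, the synthase that builds palmitate, read 202, 205 and 204 in LV-shNC and 159, 161 and 172 in LV-shIL-1β. Control arrays of FASN were nearly identical, and the signal fell by 19.5% (log2 -0.31 ± 0.06, limma adjusted p = 0.0111). Its other probe set gave -0.22 ± 0.11 and did not pass (limma adjusted p = 0.281). SCD, the desaturase that makes oleate from stearate, read 2644, 2985 and 2863 in LV-shNC and 2447, 2086 and 2099 in LV-shIL-1β. LV-shIL-1β 1 lay nearest to the controls but below all of them, and SCD fell by 22.0% (log2 -0.36 ± 0.07, limma adjusted p = 0.0114). The 3 other probe sets of SCD also fell, by 0.55, 0.55 and 0.44 on the log2 scale (limma adjusted p = 0.00114, 0.00076 and 0.00323). Without LV-shIL-1β 2 the adjusted p was 0.0618 for FASN and 0.0714 for SCD on their brightest probe sets.

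The other fatty acid genes gave small differences. ACLY, which makes cytosolic acetyl-CoA from citrate and so feeds both routes, read 1068, 1105 and 1158 in LV-shNC and 1168, 1159 and 1106 in LV-shIL-1β (log2 fold change 0.04 ± 0.04, 95% confidence interval -0.05 to 0.14). ACACA, the carboxylase that makes malonyl-CoA, read 533, 507 and 511 against 490, 500 and 496, a narrow gap without overlap (-0.06 ± 0.05, limma adjusted p = 0.461). Its other kept probe set read 99.5, 102 and 119 against 118, 127 and 123, which overlap, and went the other way without passing the test (0.20 ± 0.08, limma adjusted p = 0.162). FADS2, a desaturase of polyunsaturated fatty acids, and ELOVL6, the elongase of palmitate, overlapped between groups at -0.12 ± 0.08 and 0.04 ± 0.07.

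Probe sets of the same gene gave a check on these values. The 30 genes had 72 probe sets, of which 65 passed the filter, and 18 genes had more than 1 that passed. Over the 65, 14 were called lower and 3 higher. Over all 27546 probe sets tested, 7.06% were called, 3.37% lower and 3.68% higher. All kept probe sets were called lower for INSIG1 (3 of 3), SCD (4 of 4) and HMGCS1 (2 of 2). For LSS 1 of 3, for FASN 1 of 2, for ABCA1 1 of 2 and for TMEM97 1 of 4 was called, in each case the brightest. Kept probe sets of ACACA, ACLY, DHCR7, ELOVL6, IDI1, NSDHL and SREBF2 lay on both sides of 0, and none of these passed the test. Different probe sets can detect different transcript ends, and their signals were not compared with each other.

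**Figure D4:**
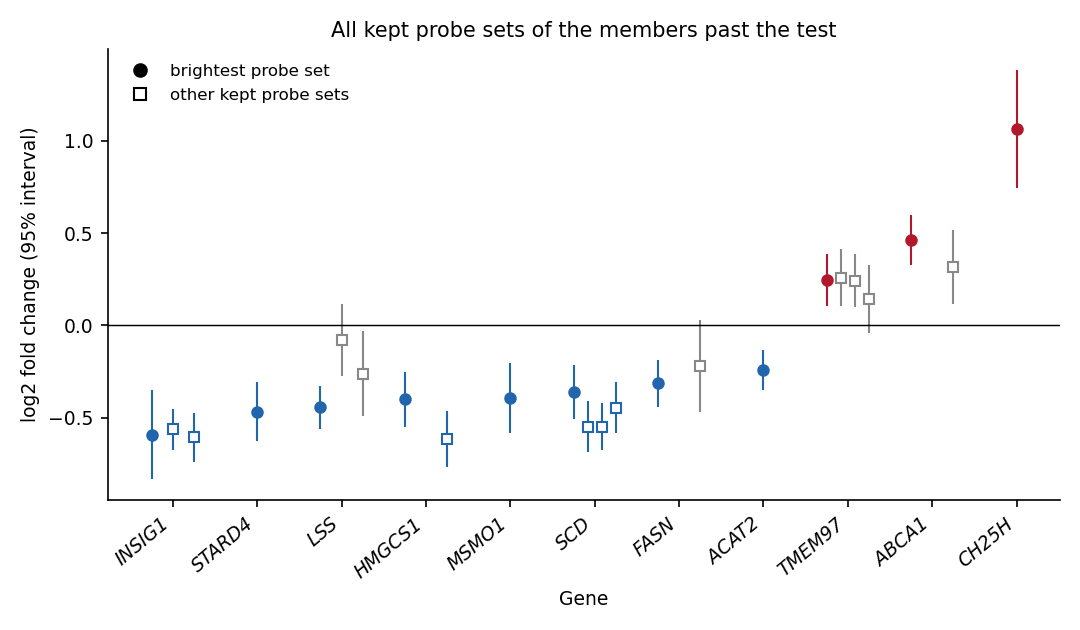
Log2 fold change with 95% confidence interval for every kept probe set of the called genes, with the brightest marked. The 3 probe sets of INSIG1 lie between -0.60 and -0.56 and the 4 of SCD between -0.55 and -0.36, while those of LSS spread from -0.44 to -0.08.

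Promoter sequences were set beside these results because many of the genes are known to share SREBP control. RefSeq promoters (GRCh38.p14, 250 bases before to 50 after the first listed start of a gene) were matched for 27 of the 30 genes, and ACAT2, FASN and SQLE had no entry. Searches covered both strands for CCAAT, the box of NF-Y, which often acts next to SREBP, for TCACNCCAC, a core form of the sterol regulatory element, and for CACGTG, an E-box. CCAAT was found in 17 of the 27 promoters, 63.0%, against 35.7% of all 27305 promoters in the table and 36.6% of the 9971 promoters of tested genes. It was present in the promoters of all 6 genes that fell and had an entry, in 1 of 3 that rose (TMEM97) and in 10 of 18 not called. CACGTG was found in 5 promoters (LSS, INSIG1, ABCA1, SC5D and SCAP), 18.5% against 7.43% of all and 10.3% of those of tested genes. TCACNCCAC was found only in the promoter of SREBF2, among these 27, and in 1.15% of all promoters. Since 8 of the 27 genes, 1 of them a gene that fell, have several listed starts, the first start may not be the start used in Cal27 cells. A match describes the letters and was not tested as a binding site.

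Promoters of the 5 sterol-arm genes that fell and had an entry are shown because all hold CCAAT, from 1 match in INSIG1 and in LSS to 4 in MSMO1, and that of SREBF2 because it alone held the sterol regulatory element. Each is written 5′ to 3′ on the strand of its gene, with CCAAT in either orientation (ATTGG where it lies on the opposite strand) and the sterol regulatory element in capitals. The searched motifs did not overlap in these windows. Of promoters not shown, those of MVK and NSDHL, both not called, held 5 CCAAT matches each, and that of TMEM97, which rose, held 3. Among the 18 genes not called, 10 held any. INSIG1 lies at chr7:155297628-155297927 on the plus strand, with its match 170 bases before the start. HMGCS1 lies at chr5:43313363-43313662 on the minus strand, with matches 155 and 100 bases before the start. LSS lies at chr21:46228725-46229024 on the minus strand, with its match 150 bases before the start. MSMO1 lies at chr4:165327419-165327718 on the plus strand, with matches 185, 139, 76 and 34 bases before the start. STARD4 lies at chr5:111512486-111512785 on the minus strand, with 2 matches, and SREBF2 at chr22:41832855-41833154 on the plus strand, with the sterol regulatory element 133 bases and a CCAAT box 106 bases before the start.
INSIG1: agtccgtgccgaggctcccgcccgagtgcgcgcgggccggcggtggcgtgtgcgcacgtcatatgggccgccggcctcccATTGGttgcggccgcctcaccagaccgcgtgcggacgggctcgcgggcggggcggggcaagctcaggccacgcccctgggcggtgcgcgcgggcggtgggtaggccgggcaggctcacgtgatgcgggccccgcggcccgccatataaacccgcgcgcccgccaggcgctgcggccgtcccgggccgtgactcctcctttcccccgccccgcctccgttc
HMGCS1: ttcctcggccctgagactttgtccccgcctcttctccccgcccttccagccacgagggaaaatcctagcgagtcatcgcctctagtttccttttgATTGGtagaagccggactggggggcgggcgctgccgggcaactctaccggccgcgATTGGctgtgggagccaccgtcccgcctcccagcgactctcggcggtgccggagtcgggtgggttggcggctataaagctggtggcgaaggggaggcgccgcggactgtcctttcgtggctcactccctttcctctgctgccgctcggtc
LSS: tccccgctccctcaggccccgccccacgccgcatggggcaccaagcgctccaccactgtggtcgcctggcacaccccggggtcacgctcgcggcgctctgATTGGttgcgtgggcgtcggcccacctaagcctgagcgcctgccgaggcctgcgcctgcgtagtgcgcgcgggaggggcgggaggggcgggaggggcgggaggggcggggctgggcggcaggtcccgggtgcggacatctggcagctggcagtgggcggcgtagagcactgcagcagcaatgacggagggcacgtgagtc
MSMO1: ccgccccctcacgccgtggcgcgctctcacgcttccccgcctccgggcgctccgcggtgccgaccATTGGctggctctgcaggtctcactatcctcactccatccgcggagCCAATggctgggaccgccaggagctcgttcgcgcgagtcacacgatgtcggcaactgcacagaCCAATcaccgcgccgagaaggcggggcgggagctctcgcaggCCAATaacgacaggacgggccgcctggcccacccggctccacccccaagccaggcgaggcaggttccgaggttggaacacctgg
STARD4: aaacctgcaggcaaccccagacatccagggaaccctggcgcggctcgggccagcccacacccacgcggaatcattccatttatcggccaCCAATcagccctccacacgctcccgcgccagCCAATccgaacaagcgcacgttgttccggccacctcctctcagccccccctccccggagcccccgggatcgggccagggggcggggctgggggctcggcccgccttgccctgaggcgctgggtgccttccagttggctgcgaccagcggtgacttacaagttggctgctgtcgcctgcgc
SREBF2: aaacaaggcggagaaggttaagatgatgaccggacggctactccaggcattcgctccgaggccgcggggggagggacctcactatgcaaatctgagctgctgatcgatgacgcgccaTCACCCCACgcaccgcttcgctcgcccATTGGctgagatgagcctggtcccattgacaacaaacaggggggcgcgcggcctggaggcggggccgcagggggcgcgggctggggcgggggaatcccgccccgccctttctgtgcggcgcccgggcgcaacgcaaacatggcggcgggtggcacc

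Genes of the same pathways outside the list of 33 were read from a further list. Of its 41 genes, 33 were tested, of which 3 fell (GGPS1, ACSS2 and HSD17B12) and 1 rose (LBR), 12.1% in all beside 8.53% of all genes, with a median log2 fold change of -0.02. ACSS2, which makes acetyl-CoA from acetate, read 147, 146 and 152 in LV-shNC and 106, 114 and 106 in LV-shIL-1β (-0.45 ± 0.06, limma adjusted p = 0.00295). GGPS1, which draws farnesyl diphosphate into geranylgeranyl diphosphate, read 367, 344 and 365 against 283, 306 and 309 (-0.26 ± 0.06, limma adjusted p = 0.0237). HSD17B12, a ketoacyl reductase of fatty acid elongation, gave -0.18 ± 0.04 (limma adjusted p = 0.0302). LBR, a nuclear envelope protein that also reduces a sterol double bond, rose from 513, 574 and 577 to 694, 677 and 609 (0.25 ± 0.07, limma adjusted p = 0.0487). Only ACSS2 kept its call under every alternative run for these 4 genes. The 29 others lay between -0.17 and 0.18.

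Position in the genome was compared because neighbouring genes can move together. For each of the 30 genes, up to 15 tested genes on either side in RefSeq order were read. Around LSS, on the long arm of chromosome 21, 22 neighbours had a median log2 fold change of -0.14, the lowest of the 30 sets, with 17 below 0 and 3 called lower (COL6A1, MCM3AP and DIP2A, at -0.32, -0.28 and -0.32), beside 4.5% lower over all genes. LSS itself, at -0.44, lay below these 3. COL6A2 and SPATC1L, neighbours of LSS that were not called, lay at -0.42 and -0.36 (limma adjusted p = 0.051 and 0.0923). More neighbours, 5 each, were called lower around INSIG2 and around ACLY. Those around INSIG2 include IL1B, the target of the hairpin, and those around ACLY include the keratin genes KRT13, KRT14, KRT15 and KRT16. The next lowest median was that around HMGCS1, -0.08, with 21 of 30 neighbours below 0. The highest median, 0.12, was that around IDI1, itself at -0.17 and not called, with 4 of 20 neighbours called higher. Around CH25H, on chromosome 10, the median of 30 neighbours was 0.05 and 8 were called higher, among them the interferon-induced genes IFIT1, IFIT2, IFIT3 and IFIT5 (0.38, 0.37, 0.27 and 0.46). Over all genes 4.03% were called higher. CH25H itself had control arrays below the filter, and its fold change was not ranked against theirs. The part of neighbourhood in the values of LSS and CH25H was not tested.

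**Figure D5:**
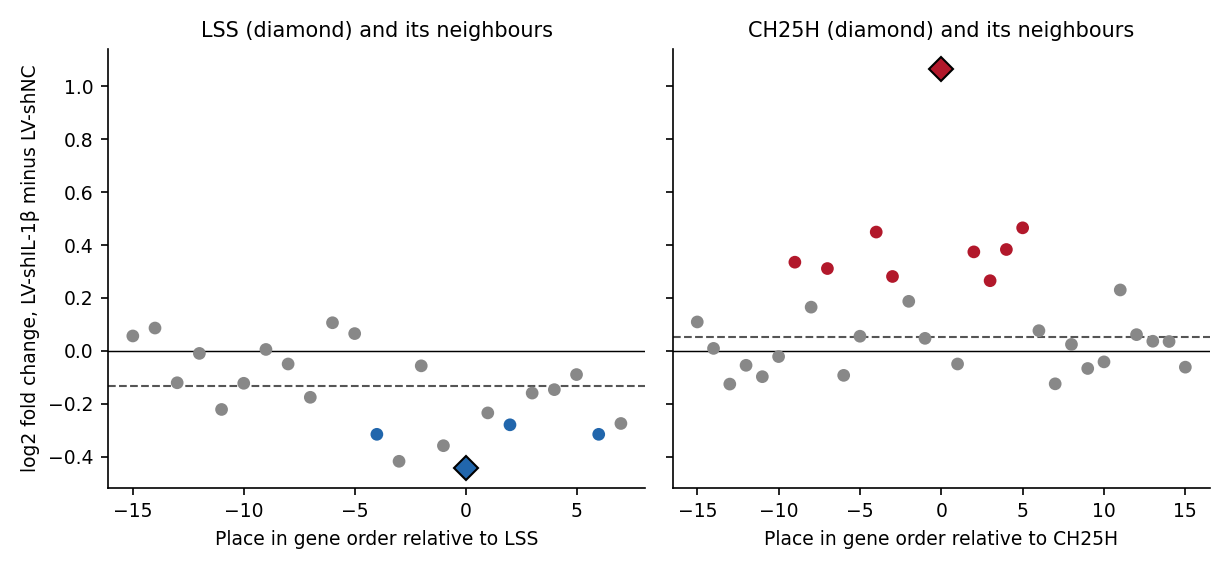
Log2 fold change (LV-shIL-1β minus LV-shNC) of the tested neighbours of LSS (left) and CH25H (right) by place in RefSeq gene order. The diamond is the gene itself, and the dashed line the median of its neighbours, -0.14 for LSS and 0.05 for CH25H. Blue points were called lower, red higher and grey not called.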

How the data were processed

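Total RNA of Cal27 cells was profiled on 3 arrays a group, grouped by the labels. The authors deposited linear intensities for 54675 probe sets on each array, made with MAS5 per the submitters' processing notes, whose version and settings the sources used here do not give. Array medians were 18.4 to 18.9, no values were at 0, and at most 1.17% of values were equal in any pair of arrays. Precision is limited by the number of arrays.

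The deposited intensities were put on the log2 scale with no normalization added. After removal of 62 array controls, 27546 probe sets with at least 3 of 6 arrays above the median of all values were tested two-sided in R 4.3.3 by limma 3.58.1 (lmFit, then eBayes with trend), with Benjamini-Hochberg adjustment over all of them and a threshold of 0.05. The test was first run on simulated data with values drawn independently for each array, and no outcome of that run is used here. Gene names came from the platform annotation (41097 probe sets with 1 symbol, 1801 with several, 11777 with none), and the Entrez identifiers of all 30 genes with a value matched RefSeq, with 0 symbols changed. No coordinates were taken from the files. All 33 listed genes, IL1B, and the other pathway genes called by limma were named by rule. Neighbours were named after their values were seen. They were those called lower around LSS, COL6A2 and SPATC1L there, the keratin genes around ACLY, and the IFIT genes around CH25H. The genes and lists were chosen with earlier results of these data known, so their counts are descriptions. Same-numbered arrays of both groups did not deviate together (correlations -0.39, -0.11 and -0.21), so they were not treated as pairs. Alternatives were no filter, a stricter filter, a pseudocount of 16, median centring, quantile normalization, a replicate block, no trend and array weights. Others were the methods' t-test, the mean of a gene's probe sets, and leaving out each array. In a further one, probe sets prone to cross-hybridization were set aside where a gene had another kept one.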

Additional observations from a re-analysis of the deposited data

How the results depend on the processing

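IL1B was lower and passed under all 17 alternatives (log2 -0.74 to -0.69). No called gene changed sign. The number of the 30 genes that fell, 8, became 2 with the replicate block (LSS and STARD4), 5 without the trend and 0 by the methods' t-test after Benjamini-Hochberg (11 at an unadjusted p under 0.05, 12 by limma), and 3 to 8 when single arrays were left out. With array weights it was 9, since SREBF1 passed there (limma adjusted p = 0.0471). The number that rose, 3, became 1 by the methods' t-test (ABCA1, adjusted p = 0.0456) and 2 to 3 with single arrays left out. It became 2 with no filter, the stricter filter, the replicate block, no trend, and probe sets prone to cross-hybridization set aside. At a fold over 1.5 with an unadjusted p under 0.05, the methods' t-test gave 1 lower and 1 higher, as did limma. Shares of all genes at these unadjusted cutoffs were not taken, so the counts are descriptions. The same-numbered arrays share only a number, and 0 of 6 correlated best with its own number.

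Of other pathway genes, 1 was lower (main value 3) with the replicate block, without the trend and by the methods' t-test, and 1 to 2 with single arrays left out. The number higher, 1, became 0 with no filter, median centring, the replicate block, no trend, array weights and the methods' t-test, 2 with the mean of probe sets, and 0 to 1 with single arrays left out. LBR, the gene concerned, had a limma adjusted p of 0.0487.

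Medians of log2 fold changes stayed on their side of 0 in the alternatives run. That of the sterol arm was -0.11 with quantile normalization and -0.12 to -0.08 with single arrays left out, and that of the fatty acid arm -0.127 to -0.073. The mevalonate genes gave -0.11 with the mean of probe sets. They gave -0.092 when probe sets prone to cross-hybridization were set aside where a gene had another kept one. Genes with no other kept one, such as ACAT2, MVD, FASN and SCD, kept theirs, so that run was no check on them. The SREBP regulators gave -0.10 with array weights, -0.073 with the mean of probe sets and -0.16 to -0.073 with single arrays left out. The transport and oxysterol genes gave 0.089 with the stricter filter, which leaves out CH25H, and 0.19 to 0.31 with single arrays left out. Except for that filter, the cause of these moves was not tested. Low signal limits CH25H, whose control arrays lie below the filter.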

Other observations

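LIPA, the lysosomal lipase that frees cholesterol from lipoprotein esters and the nearest measured gene to CH25H, was chosen after its values were seen. Its bright probe set read 899, 894 and 873 in LV-shNC and 824, 857 and 895 in LV-shIL-1β (log2 fold change -0.05 ± 0.04, limma adjusted p = 0.553), with overlapping arrays. A dim probe set annotated to LIPA read 17.4, 16.3 and 17.8 in LV-shNC, all below the filter of 18.6, and 26.1, 25.8 and 27.9 in LV-shIL-1β. It passed the filter only through the knockdown arrays and so had to differ, and these values are given as a description with no test.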
